A study of Mus musculus with 6 samples.

Results

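The carbonic anhydrase genes Car3, Car2, Car4, Car5b, Car12 and Car13 were followed in mouse white adipocytes after induced deletion of floxed Dicer1. They are 6 of 13734 genes in the table. Car3 was selected on its readout in these libraries: it lay below the controls while other adipocyte genes lay above them in 2 of the knockout libraries. The values of Car3 in knockout against control are therefore given as a description, with no test. The other 5 were listed with it as members of the same family.

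Poly(A) RNA was sequenced from an immortalized white subcutaneous preadipocyte line of genotype Dicer1 flox/flox with the inducible recombinase Cre-ERT2, differentiated in culture. Dicer1 encodes the enzyme that cuts microRNA precursors, and Cre-ERT2 deletes the floxed gene once 4-hydroxytamoxifen is present. On differentiation day 6 the 3 DICERKO cultures received 10 µM 4-hydroxytamoxifen for 48 h and the 3 control cultures received ethanol. All 6 carried the same alleles, although the labels call the controls wild type, and all had been differentiated with 20 nM insulin and 2.8 µM rosiglitazone, an agonist of the adipogenic receptor PPARγ, with T3, IBMX, dexamethasone and indomethacin in earlier media. Before lysis every culture was stimulated for 6 h with 10 µM isoproterenol, which activates beta-adrenergic receptors. Deletion and 4-hydroxytamoxifen cannot be told apart here, no unstimulated culture was analysed, and all libraries come from a single line. The labels call the libraries biological replicates but do not say whether they were differentiated separately. The p-values therefore measure only how these 6 libraries vary, and that variation may be technical.

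Carbonic anhydrases interconvert carbon dioxide and bicarbonate and so link metabolism to pH. Mammals have cytosolic, mitochondrial, membrane-bound and secreted forms. In fat, the mitochondrial forms are known for supplying bicarbonate to pyruvate carboxylase, and cytosolic Car3 is known as an abundant adipocyte protein with weak hydratase activity that is also found in slow skeletal muscle.

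Reads on the genes of the table numbered 13569034 to 30268077 per library, the highest in DICERKO replicate 3. Levels are given as log2 CPM, read counts scaled to library size. Dicer1 stood at 6.14, 6.09 and 6.14 log2 CPM among controls and 5.43, 5.47 and 5.49 among DICERKO libraries. It fell by 0.66 in log2 CPM (limma adjusted p = 0.0150, SE 0.10), to 63.3% of control. Counts over the whole gene do not show the floxed part alone, so how far deletion went was not measured. That adjusted p lay between 0.0568 and 0.147 when any control, or DICERKO replicate 1 or 2, was left out. DICERKO replicate 3 stood apart in its adipocyte transcripts. The median difference from the control mean over 24 mature adipocyte genes was 0.85, 0.87 and -0.99 log2 CPM in DICERKO replicates 1, 2 and 3. Of the markers of other cells, 6 macrophage genes gave 33.7 to 38.7 CPM in controls and 38.5 to 39.8 in DICERKO, and 4 skeletal muscle genes gave 2.29 to 2.85 and 2.31 to 2.96. Results that rest on DICERKO replicate 3 are given with and without it. In bulk RNA, fewer cells of a type and less RNA per cell cannot be told apart.

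Since Dicer1 is needed to make most microRNAs, the 3' untranslated regions of the members were searched for seed matches, and the matches that 2 members share are shown first. The seed is bases 2 to 8 of a microRNA, and a match is its 7-base complement. Of 11 microRNA families searched, Car12 held matches to 5, Car5b and Car13 to 2 each, Car3 to 1, and Car2 and Car4 to 0. None of the 6 genes matched let-7. Mature microRNAs are from RefSeq (GRCm38.p6) and the untranslated regions from GENCODE M21 (GRCm38). Capitals mark the seed in each microRNA and its match in each gene.
miR-29a-3p: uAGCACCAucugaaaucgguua
Car3 match: tctcctccTGGTGCTccctactc
Car5b match: accaatggTGGTGCTacttacca
miR-26a-5p: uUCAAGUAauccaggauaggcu
Car12 match: cactccatTACTTGAaaatgaat
Car13 match: gtaaattgTACTTGAtaatgtct
miR-24-3p: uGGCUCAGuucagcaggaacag
Car5b match: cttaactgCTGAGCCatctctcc
Car13 match: ggcttagaCTGAGCCtatcccat
The Car3 match to miR-29 starts at base 64 of an 862-base region (chr3:14871725-14871731, plus strand), and 10.3% of 1339 untranslated regions of similar length hold such a match. In Car5b it starts at base 1764 of 2369 (chrX:163977421-163977427, minus strand), where 22.8% of regions of similar length hold it. For miR-26, the Car12 match lies at chr9:66765184-66765190 (17.7% of regions of similar length) and the Car13 match starts at base 1206 of 1428 (10.4%), at chr3:14662780-14662786. For miR-24, the matches lie at chrX:163978576-163978582 in Car5b (27.4% of regions of similar length) and chr3:14661883-14661889 in Car13 (20.7%). A match is a description and microRNAs themselves were not measured.

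Car3 was the most abundant carbonic anhydrase transcript in controls and, of the family members tested, the lowest relative to them in every knockout library. Car3 (Entrez 12350, GRCm38 chr3:14863538-14872381) stood at 7.14, 6.68 and 7.16 log2 CPM in control replicates 1 to 3, against 5.14, 5.89 and 2.67 in DICERKO replicates 1 to 3. Every DICERKO library lay below every control, and DICERKO replicate 3 lay far below the other two. Against the control mean, Car3 was at 27.7%, 46.4% and 4.97% in the 3 DICERKO libraries. The difference of means was -2.43 log2 CPM over all libraries and -1.48 without DICERKO replicate 3. The spread was wide: values ranged over 9.34-fold among DICERKO libraries and 1.39-fold among controls. In RefSeq the start of Car3 overlaps a noncoding RNA gene, Gm41999, which stayed at or below -2.14 log2 CPM in every library.

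The position of Car3 among other genes differed between the knockout libraries. In DICERKO replicate 3, 0 of the other tested genes lay as far below their control mean as Car3 did, out of 10054 genes tested. In replicates 1 and 2, 9 and 54 other genes lay as far below. Car3 was among 16 genes (0.159% of those tested) that lay at least 1 log2 unit below the control mean in each of the 3 DICERKO libraries. It was the only carbonic anhydrase among them. Since Car3 was chosen on these values, its rank is a description.

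The other cytosolic members, Car2 and Car13, share a gene cluster of 259 kb on chromosome 3 with Car3, and in both the groups overlapped. Car2, the high-activity cytosolic enzyme, stood at 4.08, 3.61 and 3.77 log2 CPM among controls and 3.43, 3.62 and 1.94 among DICERKO libraries. The overlap arose because DICERKO replicate 2 lay just above control replicate 2, and replicate 3 was again the lowest. The Car2 difference was -0.82 (SE 0.36, 95% interval -1.62 to -0.03, limma adjusted p = 0.302), and -0.30 without DICERKO replicate 3 (SE 0.15, limma adjusted p = 0.176). Car2 (chr3:14886269-14900770) begins 13.9 kb beyond the end of Car3, while a gap of 200.5 kb separates Car13 from Car3.

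Car13 (Entrez 71934, chr3:14641727-14663002), the other of these cytosolic members, differed upward by a small amount. It stood at 6.15, 6.00 and 6.26 log2 CPM among controls and 6.62, 6.50 and 6.26 among DICERKO libraries, where replicate 3 equalled the highest control to 2 decimals and replicates 1 and 2 lay above all controls. The Car13 difference was 0.32 (SE 0.12, 95% interval 0.05 to 0.59, limma adjusted p = 0.260). Without DICERKO replicate 3, Car13 rose by 0.42 (SE 0.11, limma adjusted p = 0.0106). Of the nearest genes with values on each side of the cluster, Rbis, a ribosome biogenesis factor gene, differed by 0.63 (limma adjusted p = 0.246, and 0.0449 without DICERKO replicate 3) and Ythdf3, an m6A reader gene, by 0.30 (limma adjusted p = 0.291 and 0.0538). Ythdf3 lies at chr3:16183148-16217037, far beyond the end of Car2, and neither flanking gene passed over all libraries.

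Car5b, a mitochondrial form, lay above the controls in DICERKO replicates 1 and 2 and below them in replicate 3. Car5b (Entrez 56078, chrX:163976822-164028010) stood at 4.53, 4.49 and 4.48 log2 CPM in controls, a spread of 0.03 (SD, n = 3), and at 5.60, 5.73 and 3.76 in DICERKO. Each DICERKO library lay outside the control range, at 214%, 234% and 59.7% of the control mean. Over all libraries the difference was 0.53 (SE 0.40, 95% interval -0.37 to 1.42, limma adjusted p = 0.505). Without DICERKO replicate 3, Car5b rose by 1.16 (SE 0.11, limma adjusted p = 3.56e-06). That p leaves out the library that lay on the other side.

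Car4 and Car12, whose active sites face the outside of the cell, were low in every library. Car4 (chr11:84957754-84966054), anchored in the membrane by a lipid, stood at 1.19, 1.13 and 1.24 log2 CPM among controls and 1.60, 1.85 and 1.00 among DICERKO libraries, on 49 to 87 reads per library. Its difference was 0.30 (SE 0.25, 95% interval -0.25 to 0.85, limma adjusted p = 0.534), and 0.54 without DICERKO replicate 3 (limma adjusted p = 0.0982). Car12 (chr9:66712296-66766845), a transmembrane form known to respond to hypoxia, had 17 to 62 reads per library and stood at 0.12, -0.37 and 0.15 log2 CPM among controls and 0.48, -0.24 and 0.56 among DICERKO libraries. The Car12 groups overlapped, with a difference of 0.30 (SE 0.32, 95% interval -0.41 to 1.01, limma adjusted p = 0.630), and 0.15 without DICERKO replicate 3 (0.779). With these counts and this spread among 3 libraries a group, changes within those intervals were not excluded.

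**Figure D1:**
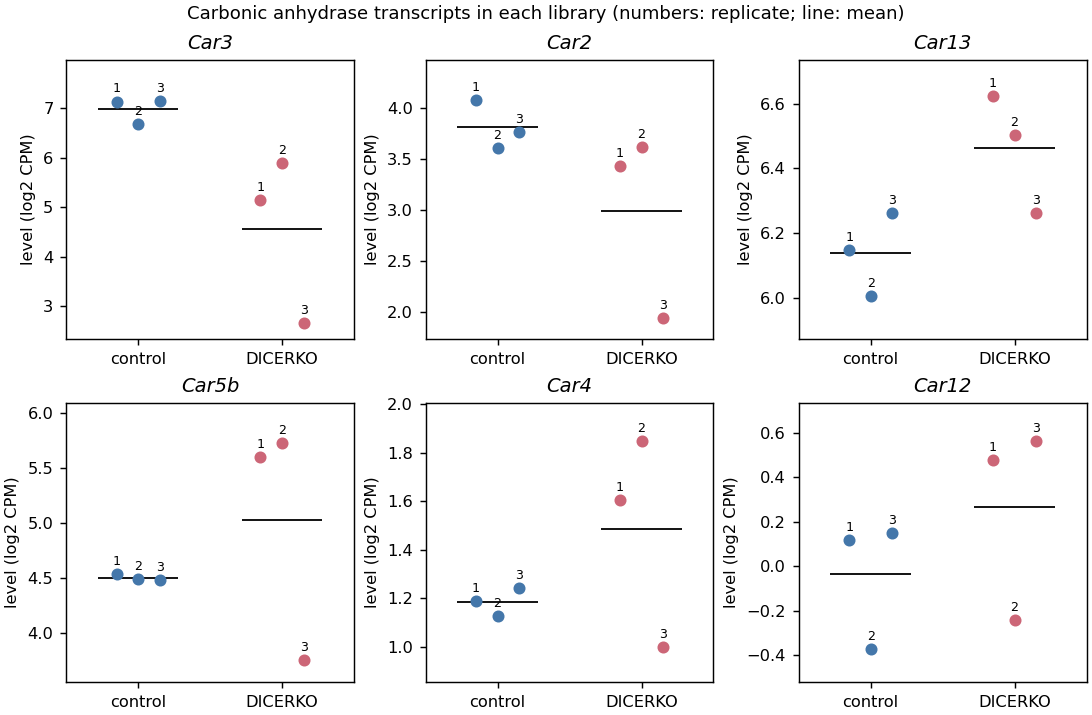
Level of each gene in log2 CPM (vertical axes, each with its own range) in 3 control and 3 DICERKO libraries, with points numbered by replicate and lines at group means. Car3 has all DICERKO points below all controls, and in Car3, Car2, Car5b and Car4 the lowest point is DICERKO replicate 3.

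Of the 5 members other than Car3, 0 passed the limma threshold of 0.05 over all 6 libraries, and limma-voom also called 0. At an unadjusted limma p under 0.05 there were 2 (Car2 and Car13), beside 1593 of all 10054 tested genes. At the adjusted threshold the background was low: 0.149% of 10054 tested genes were higher and 0.288% were lower in DICERKO. Without DICERKO replicate 3, 2 of the 5 rose (Car5b and Car13) and 0 fell, where 12.5% of all genes rose and 7.22% fell. Among all 6 members, only Car3 had groups that did not overlap, on the lower side, which held for 9.81% of tested genes, while 10.4% had non-overlapping groups on the higher side. Nothing is read from that count for Car3, since it was chosen on this contrast.

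Of 16 genes in the family list, 14 had values and 8 passed the filter of 1 CPM in 3 libraries: the 6 members, Car6 and Car11. Car6, the secreted form known from saliva, stood at 3.26, 3.37 and 3.12 log2 CPM among controls and 2.18, 2.23 and 3.18 among DICERKO libraries, so that replicates 1 and 2 lay below all controls and replicate 3 lay among them. Its difference was -0.73 (SE 0.25, limma adjusted p = 0.228), and without DICERKO replicate 3 Car6 fell by 1.05 (limma adjusted p = 0.000301). Car11, a related protein without catalytic activity, differed by -0.06 (SE 0.23, limma adjusted p = 0.905), and its sign changed without DICERKO replicate 3 (0.16). The other 6, Car5a, Car7, Car8, Car9, Car14 and Car15, had at most 41 reads in any library and were not tested. Car9, a hypoxia-responsive form, had 1 to 18 reads. Car1 and Car10 are not analysed here.

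Per length of transcript, the family was led by Car3 in controls and by Car13 in DICERKO. In RPKM, which divides the CPM by the length in kb of the longest coding transcript, controls averaged 76.8 ± 13.5 for Car3, 30.7 ± 2.73 for Car13, 7.96 ± 1.37 for Car2, 6.59 ± 0.13 for Car5b, 1.79 ± 0.07 for Car4 and 0.260 ± 0.051 for Car12 (SD, n = 3). Car2 and Car5b, neighbours in this order, differed by about the spread of Car2, and Car6 at 6.08 ± 0.52 lay next to Car5b within its spread. In DICERKO the averages were 38.5 ± 4.80 for Car13, 20.0 ± 15.8 for Car3, 11.1 ± 6.28 for Car5b, 4.997 ± 2.51 for Car2, 2.28 ± 0.65 for Car4 and 0.328 ± 0.093 for Car12 (SD, n = 3). There the spreads of neighbours in this order overlapped, except those of Car4 and Car12.

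The summed carbonic anhydrase level and its make-up followed Car3. Over the 14 genes it was 143, 115 and 144 RPKM in controls and 92.8, 107 and 54.3 in DICERKO, so each DICERKO total lay below each control total. Summed in CPM, without division by length, the groups overlapped, at 221.7 to 273.7 in controls and 118.6 to 231.0 in DICERKO. Car3 made up 58.7%, 53.2% and 59.2% of the total in controls and 22.6%, 32.9% and 6.94% in DICERKO. The Car13 share was 21.6%, 24.3% and 23.2% in controls and 46.2%, 36.8% and 61.4% in DICERKO. Car5b took 4.51% to 5.68% in controls and 15.2%, 14.4% and 7.24% in DICERKO. Shares of a sum are not independent, and these include Car3, on which the set was chosen.

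**Figure D2:**
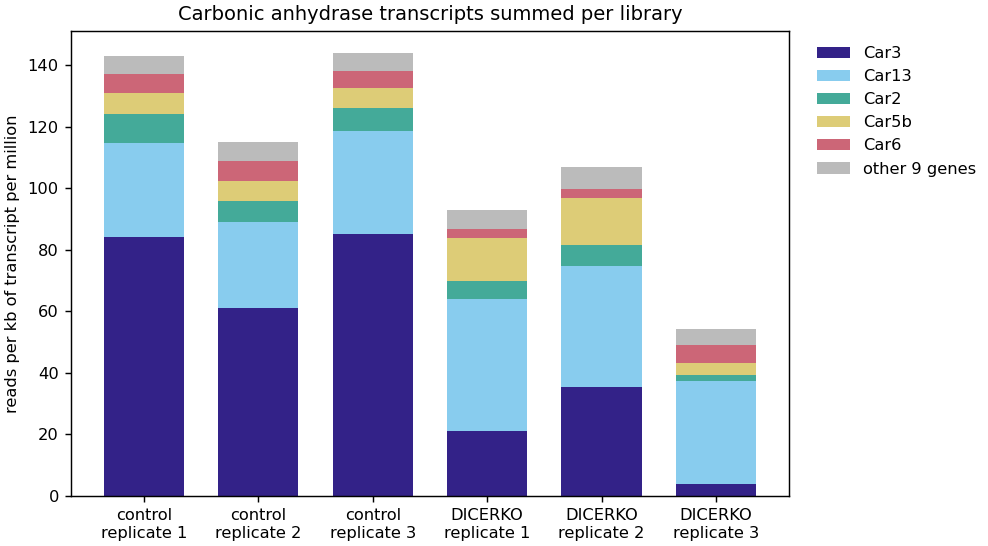
Stacked bars give RPKM for carbonic anhydrase genes in each of the 6 libraries, with colours for 5 genes and grey for the other 9. The Car3 segment is the tallest in the controls, and in DICERKO replicate 3 it shrinks to 3.77 RPKM under a Car13 segment of 33.4 RPKM.

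The members were then set against 24 mature adipocyte genes, because these transcripts separated DICERKO replicate 3 from the other knockout libraries. In replicates 1 and 2, 22 of the 24 lay above their control mean, and in replicate 3, 1 did. The 2 below in every DICERKO library were Lpl, the lipoprotein lipase gene, and Cd36, a fatty acid transporter gene. Of the 24 genes, 0 passed in limma over all libraries, and limma-voom called 0. An unadjusted limma p under 0.05 was found for 3, beside 1593 of all 10054 tested genes. Dgat2, a triglyceride synthesis gene, had the smallest p and differed by 0.70 (limma adjusted p = 0.226). Without DICERKO replicate 3, 21 rose, among them Adipoq by 1.11 and Retn, the resistin gene, by 1.16, and 0 fell, beside 12.5% of all tested genes that rose and 7.22% that fell. Car3 lay below all 24 in each DICERKO library. This is a description: Car3 was picked because it fell while other adipocyte genes rose in 2 of these libraries. The step from the mean of DICERKO replicates 1 and 2 down to replicate 3 was -2.85 log2 CPM for Car3 and -1.91 for Car5b, while over the adipocyte genes it ranged from -2.56 to -0.66 with a median of -1.62. It was -1.58 for Car2, -0.73 for Car4, -0.30 for Car13 and 0.45 for Car12, and the median over all tested genes was 0.01.

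**Figure D3:**
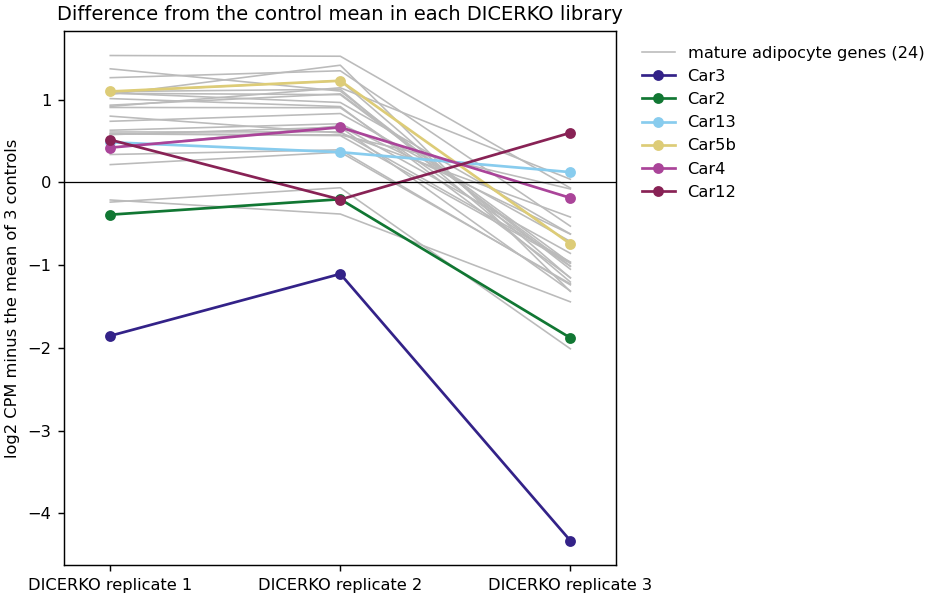
Vertical axis, log2 CPM minus the mean of the 3 controls; horizontal axis, the 3 DICERKO libraries; lines join the values of a gene and do not mark an order. Car3 lies below all 24 mature adipocyte genes (grey) in every library, Car5b runs among them, and Car13 stays between 0.12 and 0.48. Car3 was chosen on this contrast, so its place is a description.

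Subtracting the mean log2 CPM of the 24 adipocyte genes, a measure chosen after the values had been seen, gave a level relative to adipocyte transcripts. Car2 on this scale was -3.08, -3.47 and -3.34 in controls and -4.45, -4.31 and -4.26 in DICERKO. The Car2 groups no longer overlapped, and the DICERKO spread was 0.10 against 0.92 in log2 CPM (SD, n = 3), with a difference of means of -1.04. Car5b was -2.63, -2.59 and -2.62 in controls and -2.28, -2.19 and -2.44 in DICERKO, a difference of 0.31 with groups that did not overlap. The exact two-sided permutation p was 0.1 for Car2 and for Car5b, the smallest that 3 against 3 libraries can give (0.25 adjusted over 5 genes). Any groups of 3 that do not overlap give this p, so it only restates the separation. As the scale was chosen with the values known, nothing is concluded from it. On this scale 1.11% of tested genes had non-overlapping groups on the lower side and 1.07% on the higher side. Car4, Car12 and Car13 had overlapping groups, with differences of 0.08, 0.08 and 0.10. Car3, as a description, was -0.03, -0.39 and 0.06 in controls and -2.74, -2.03 and -3.54 in DICERKO. For Car3 this scale restates the contrast on which it was chosen. For Car2 the subtracted mean matters: it was 7.08 to 7.17 log2 CPM in controls. In DICERKO replicates 1, 2 and 3 that mean was 7.88, 7.92 and 6.20. Car2 in log2 CPM alone differed from its control mean by -0.39, -0.20 and -1.88 in these libraries. So in replicates 1 and 2 most of its gap on this scale came from the subtracted mean.

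**Figure D4:**
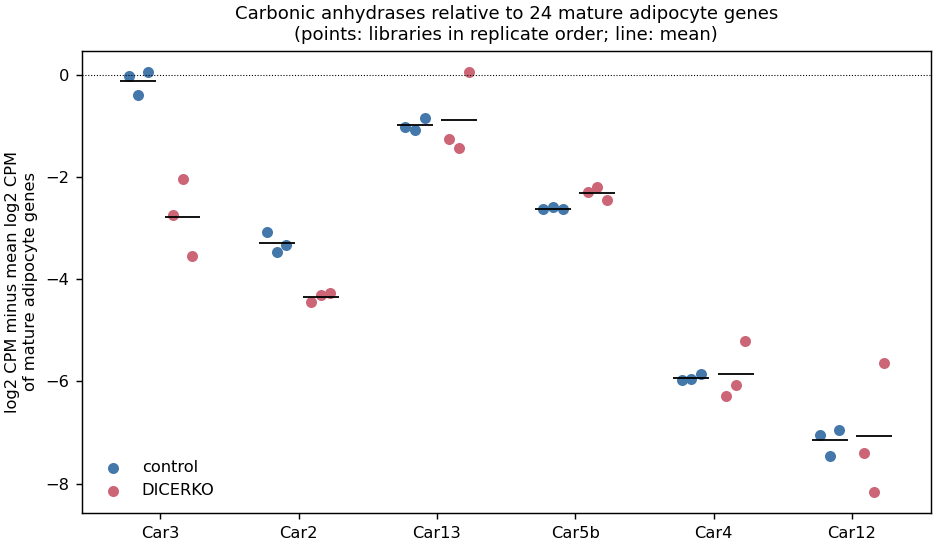
Vertical axis, log2 CPM of each gene minus the mean log2 CPM of 24 mature adipocyte genes; points are the 3 control (blue) and 3 DICERKO (red) libraries and lines are group means. Car2 shows tight, separate groups at means of -3.30 and -4.34, and Car3 the widest separation. The scale was chosen after the values had been seen, and Car3 was chosen on this contrast, so its place is a description.

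The genes whose profile was most like that of Car3 were found by the root mean square difference, over the 6 libraries, of log2 CPM minus the control mean. Among 8259 genes with a mean of at least 5 CPM the nearest were Fgl1 (0.56), a secreted fibrinogen-like protein gene, B3galt2 (0.65), a galactosyltransferase gene, Spon1 (0.68), a matrix protein gene, Aldh1a7 (0.69), an aldehyde dehydrogenase gene, and Tshr (0.88), the thyrotropin receptor gene. The median over all compared genes was 2.00. Fgl1 differed from its control mean by -1.38, -0.98 and -3.11 in DICERKO replicates 1 to 3, the same order of libraries as Car3. Tshr differed by -0.49, -0.18 and -2.97, with most of the distance from controls in replicate 3. With genes down to a mean of 1 CPM, Abca8a, an ABC transporter gene, took the place of Tshr.

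Genes related to carbon dioxide, bicarbonate, proton and lactate export or hypoxia were counted in 5 lists. Over all libraries, limma and limma-voom called 0 genes in each. The lists were 4 tested bicarbonate transporters, 8 bicarbonate-consuming enzymes, 15 carbon dioxide-releasing enzymes (mostly dehydrogenases), 8 proton and lactate exporters and 16 hypoxia-induced genes. At an unadjusted limma p under 0.05 they held 0, 0, 1, 2 and 6 genes, beside 1593 of all 10054 tested genes. The median differences were 0.04, 0.13, 0.18, -0.12 and -0.16, beside 0.02 over all tested genes. Slc4a7, a sodium bicarbonate cotransporter gene, had the smallest p of its list and differed by 0.29 (limma adjusted p = 0.375).

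Without DICERKO replicate 3, where 12.5% of all tested genes rose and 7.22% fell, the enzymes on both sides of the carbonic anhydrase reaction were mostly higher. Of bicarbonate-consuming enzymes 5 of 8 rose, and 1, the pyrimidine synthesis gene Cad, fell by 0.37. Of carbon dioxide-releasing enzymes 12 of 15 rose and 0 fell. Pcx, the pyruvate carboxylase gene, which uses mitochondrial bicarbonate, rose by 0.48 (limma adjusted p = 0.0022), and Acacb, an acetyl-CoA carboxylase gene, rose by 1.17. Dlat, a pyruvate dehydrogenase subunit gene, rose by 0.95. In DICERKO replicate 3, 1 of the 8 consuming and 1 of the 15 releasing enzymes lay above the control mean, as did 1 of the 24 adipocyte genes. The part of that shared pattern in these counts was not tested. With all libraries Pcx differed by 0.03, Acacb by 0.66 and Dlat by 0.66 (limma adjusted p = 0.965, 0.355 and 0.193). The 4 transporters had 0 calls in limma without DICERKO replicate 3, with 1 at an unadjusted p under 0.05. In that fit 1 exporter, the lactate transporter gene Slc16a3, fell by 0.55, and 5 of 16 hypoxia-induced genes fell, among them P4ha1, a collagen prolyl hydroxylase gene, by 0.54, beside 7.22% of all tested genes. No gene of the hypoxia list rose in either fit.

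Markers of other cells were read beside Car3. Of the skeletal muscle list, the other tissue known for Car3, Acta1 alone was tested and differed by 0.31 (limma adjusted p = 0.585), and Ttn, Tnnt1 and Mb stayed under 1 CPM in every library. Of 6 macrophage genes with values, Fcgr1, Mrc1 and Lyz2 were not tested for low values, and Cd68, a lysosomal protein gene, differed by 0.39 (limma adjusted p = 0.163). Cd68 lay 0.39, 0.38 and 0.40 above the control mean in DICERKO replicates 1 to 3, and without replicate 3 it rose (limma adjusted p = 0.0334). Among 15 tested preadipocyte and fibroblast genes Col3a1 fell by 1.44 (limma adjusted p = 0.0086), and 5 fell without DICERKO replicate 3, beside 7.22% of all tested genes. The list had 0 calls without control replicate 3 and with the replicate block, so the call of Col3a1 was lost there. The summed level of that list was 16123 to 18770 CPM in controls and 11351 to 12189 in DICERKO. Endothelial, smooth muscle and proliferation lists had 0 calls in 3, 5 and 5 tested genes by limma and by limma-voom. At an unadjusted limma p under 0.05 they held 1, 2 and 1, beside 1593 of all 10054 tested genes. With DICERKO replicate 3 left out, the endothelial receptor gene Tek rose by 0.68 and Kdr, another, fell by 2.07 (limma adjusted p = 0.0194 and 0.0130). Kdr was low, at a control mean of 0.12 log2 CPM (SD 0.59) and -2.82, -1.08 and 0.07 in DICERKO replicates 1 to 3. In that fit the smooth muscle genes Tagln and Smtn fell by 0.37 and 0.45 (limma adjusted p = 0.0350 and 0.0456), and 0 of 5 proliferation genes passed (1 had an unadjusted p under 0.05). The part of these markers, fibroblast genes included, in the carbonic anhydrase differences was not tested. The only erythroid gene with values, Alas2, stayed under 1 CPM in every library.

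RefSeq promoter windows (GRCm38.p6, 250 bases before to 50 after the start) matched 3 of the 6 members: Car4, Car5b and Car12. The windows of Car5b and Car4 are printed because both genes were higher in DICERKO replicates 1 and 2 and lower in replicate 3. Capitals mark matches, on either strand, to GGGCGG (the GC box), to CCAAT (the CCAAT box), to TATAAA (the TATA box), to TGACG (the core of the cyclic AMP response element), to AGGTCA (the nuclear receptor motif) or to CACGTG (the E-box).
Car5b, chrX:164027961-164028260, minus strand: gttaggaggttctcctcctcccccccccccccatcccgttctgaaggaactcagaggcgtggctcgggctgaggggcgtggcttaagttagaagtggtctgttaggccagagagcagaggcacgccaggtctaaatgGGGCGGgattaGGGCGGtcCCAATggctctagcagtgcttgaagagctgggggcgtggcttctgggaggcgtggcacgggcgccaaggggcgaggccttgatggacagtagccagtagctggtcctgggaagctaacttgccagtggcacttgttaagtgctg
Car4, chr11:84957504-84957803, plus strand: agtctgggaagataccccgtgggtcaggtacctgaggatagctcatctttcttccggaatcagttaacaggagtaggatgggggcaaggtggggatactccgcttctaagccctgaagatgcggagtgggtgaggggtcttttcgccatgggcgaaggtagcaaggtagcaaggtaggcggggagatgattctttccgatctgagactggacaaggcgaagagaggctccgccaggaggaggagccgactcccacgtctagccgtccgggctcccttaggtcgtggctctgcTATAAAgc
Car5b held 2 GC boxes (in 56.8% of 13196 windows) and 1 CCAAT (37.1%), and Car4 held 1 TATAAA (8.41%), which lay at position 43 past the start. The full element TGACGTCA (2.67%), TGACG (27.5%), AGGTCA (13.6%) and CACGTG (9.26%) did not occur in the windows of Car4, Car5b or Car12. These letters are a description of the windows, and factor binding was not measured.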

How the data were processed

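Poly(A) libraries (NEBNext Ultra II) of 3 control and 3 DICERKO cultures were analysed. The authors deposited log2 CPM values, 1 column per library, and 0 columns belonged to other samples. The submitters' processing notes list edgeR, featureCounts, HISAT2, Trimmomatic and FastQC, and name GRCm38 and mm10 as builds; versions are not given in the sources used here. The series' design text names TMM normalization, so library sizes may be scaled ones. Counting is not stated to use strand. No member overlaps another gene in GENCODE M21. Alternatives were other filters, scalings, a log2(CPM + 1) scale, limma-voom, a replicate block and each library left out.

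Each value equals the log2 CPM of whole reads plus 0.5, with 1 added to the library size, and 100% of values came out whole within 0.01 reads. These recovered reads gave RPKM and the limma-voom alternative. Of 13734 Entrez IDs, 13682 matched a RefSeq symbol (GRCm38.p6). The 10054 genes that reached 1 CPM in 3 or more libraries, all 6 members included, were fitted by limma-trend (limma 3.58.1, R 4.3.3) on all 6 libraries, with group as the only term. P-values were Benjamini-Hochberg adjusted over all genes tested, threshold 0.05, and differences are DICERKO minus control. The fit was run on simulated counts that had the same relative spread in every gene and no outlying library. That run cannot show how the fit behaves with a library such as DICERKO replicate 3. Low genes' differences are understated by the added reads. Libraries of a group differed by 8.36 to 92.8 in chi-square per degree of freedom, so none was treated as a repeat of another. The value was 8.36 for DICERKO replicates 1 and 2 and 12.1 to 26.4 for pairs of controls. DICERKO replicate 3 gave 85.5 against replicate 1 and 92.8 against replicate 2, over all genes compared.

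The members, the 14 gene lists and the microRNA families were chosen with earlier results of these data known. Named genes were the members, other carbonic anhydrases with a row, up to 2 risers and 2 fallers per list or the smallest p, the 5 most like Car3, the genes flanking the cluster and Dicer1. Pcx, Cad, Adipoq, Retn, Lpl, Cd36, Kdr, Smtn, Abca8a, Gm41999 and untested markers were named after their values were seen. Figures used Python 3.11.15 and matplotlib 3.10.9.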

Additional observations from a re-analysis of the deposited data

How the results depend on the processing

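Of the 5 tested members, none changed sign under the alternatives that kept it (13 for Car2, Car5b and Car13, 12 for Car4 and Car12), and the Car3 difference lay between -3.09 and -1.48 over 13. A minimum of 5 CPM left out Car4 and Car12. Leaving out libraries moved the Car5b difference between 0.18 and 1.16 and that of Car13 between 0.24 and 0.42. Without DICERKO replicate 3 both passed in limma (adjusted p = 3.56e-06 and 0.0106), and their ranges of adjusted p over all alternatives were 3.56e-06 to 0.888 and 0.0106 to 0.640. That was the only alternative in which a tested member passed. The Car11 difference lay between -0.22 and 0.16 with a library left out, and changed sign without control replicate 2 (0.03) and without DICERKO replicate 3 (0.16).

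Genes higher numbered 0 to 1257 and genes lower 1 to 726 with a library left out, against 15 and 29 with all. The lowest came without control replicate 3 and the highest without DICERKO replicate 3. With the replicate block, 0 genes were higher and 2 lower, and no tested member passed. Same-numbered libraries correlated at 0.20, -0.01 and -0.08 in their deviations from group means, and unlike-numbered ones at -0.23 to 0.17. Deviations from a mean of 3 libraries depend on one another, so these values cannot settle whether the numbers pair cultures. The main fit assumed no pairing. Nearly all counts of calls in the gene lists were 0 with all libraries, which says nothing about their stability. The 1 fibroblast call was lost without control replicate 3 and with the replicate block. With 3 libraries a group, and 17 to 87 reads for Car4 and Car12, small differences of these genes cannot be resolved.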
